A study of Mus musculus with 14 samples.

Results

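The mitochondrial carriers of the SLC25 family were followed in RNA from the superior mesenteric artery of 14 mice. Members were taken by symbol, as every row of the count table named Slc25a followed by a digit, which gave 48 of 46095 rows. Of these, 43 passed a filter on low counts, against 17693 of all rows, and were tested. The samples were 8-week-old C57BL/6 mice in 4 groups. Under normal conditions there were 3 mice labelled Drp1 +/+ (WT) and 4 labelled Drp1 flox/+, which are called KO here after the study's own name for them. After ischemia there were 3 WT and 4 KO mice. Drp1, encoded by Dnm1l, is the dynamin-related GTPase that divides mitochondria. The study describes the KO line as heterozygous for a CRISPR/Cas9 frameshift in an early exon, and the labels leave the state of the flox allele in each mouse unstated. No promoter or cell type that would limit the loss to the vessel wall is given. Ischemia was produced by bleeding, and the library names give it as 2 h, whereas the study's text gives a longer period.

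Carriers of this family sit almost all in the inner mitochondrial membrane, which small charged molecules do not cross unaided. Each moves a defined set of substrates, such as ADP and ATP, phosphate, carboxylic acids, amino acids, acylcarnitines, iron or cofactors. Brown adipocytes, which may surround vessels, burn fatty acids in mitochondria rich in the uncoupling protein Ucp1, itself a member of the same family under another symbol.

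Total counts were 25612646 to 40255851 per mouse. Levels are given below as CPM, counts scaled to the library's total after TMM correction. Smooth muscle markers summed to 7881 to 39418 CPM, and endothelial markers to 639 to 1679 CPM, so RNA of both cell types was found in every mouse. These sums do not show how much of each sample was artery. Brown adipocyte markers ranged far more, from 194 to 7320 CPM in sum, and all 8 of them were tested. Cardiac muscle markers summed to 5387 CPM in KO ischemia mouse 4, 796 CPM in KO ischemia mouse 3 and 327 CPM in KO normal mouse 4, and to 6.66 to 55.9 CPM in the other 11 mice. The defining cardiac gene Myh6 was at 3529, 518 and 203 CPM in those 3 mice and at 0.304 to 25.4 CPM elsewhere. Dnm1l itself was at 54.8 to 90.9 CPM. KO and WT mice differed in it by a log2 value of −0.32 (SE 0.16, edgeR FDR 0.97) under normal conditions and −0.11 (SE 0.16, edgeR FDR 0.87) after ischemia, so the whole-gene level did not separate the genotypes. The study itself reported fewer reads over the targeted exon and less Drp1 protein in KO mice. Neither was examined here.

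Per kilobase of exon, the ADP/ATP carriers were the most abundant. The ADP/ATP carrier Slc25a4 had a mean of 161 CPM per kb over the 14 mice, and its paralog Slc25a5 had 107 CPM per kb. Then came Slc25a39, which brings glutathione into mitochondria, at 68.9 CPM per kb, the phosphate carrier Slc25a3 at 50.4 CPM per kb and the calcium-regulated ATP-Mg/phosphate carrier Slc25a23 at 46.5 CPM per kb. These 5 genes held 62.0% of the summed CPM per kb of the 43 tested carriers. Their order is not firm in each mouse, since Slc25a5 ranged from 38.9 to 215 CPM per kb and Slc25a39 from 22.4 to 146 CPM per kb. Order and share also depend on the exon length used, which joined all annotated exons of a gene. That length was 5550 bases for Slc25a3 and 1646 bases for Slc25a5. Slc25a23 was the steadiest of the 5, with 38.8 to 65.6 CPM per kb.

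**Figure D1:**
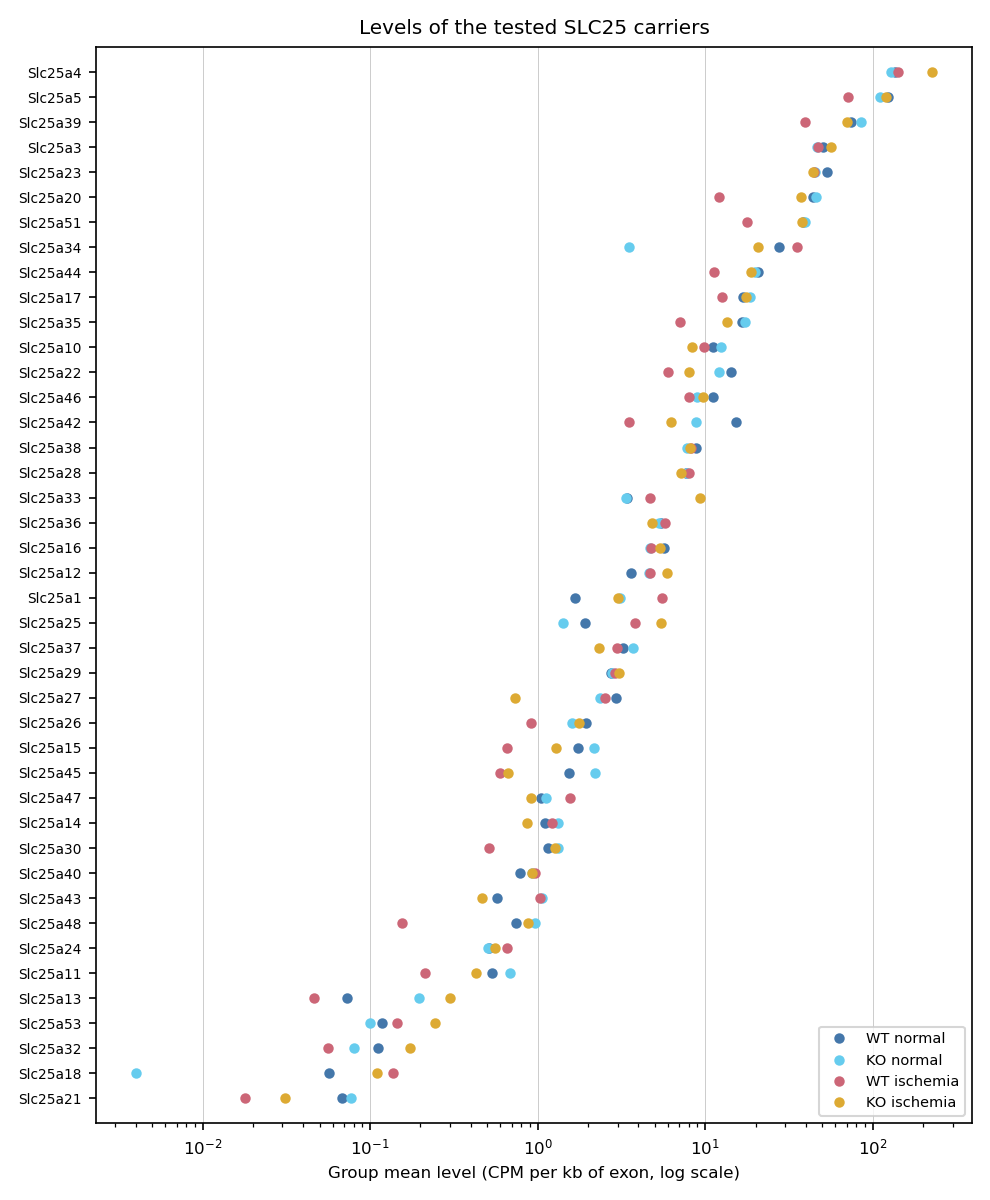
Group mean level of each of 42 tested carriers in CPM per kb of exon (log axis), with 1 point for each of the 4 groups. Slc25a4 and Slc25a5 stand at the top, and Slc25a34 shows its lowest mean in KO mice under normal conditions, apart from the other groups.

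Further down the order, carriers with related substrates stood at different levels. The citrate carrier Slc25a1 had 3.29 CPM per kb and spread from 0.112 to 13.8 CPM per kb, while the oxoglutarate carrier Slc25a11 had 0.478 CPM per kb. The aspartate-glutamate carriers differed, with Slc25a12 at 4.80 CPM per kb and Slc25a13 at 0.167 CPM per kb. The glutathione carrier Slc25a40, a paralog of Slc25a39, had 0.901 CPM per kb, and the ATP-Mg/phosphate carrier Slc25a24 had 0.554 CPM per kb. The 5 rows that were not tested were Slc25a2, Slc25a31, Slc25a41, Slc25a54 and the pseudogene Slc25a5-ps. Slc25a2, an ornithine carrier, had at most 15 counts in a mouse, Slc25a54 at most 12, and the germ-cell ADP/ATP carrier Slc25a31 at most 6. Slc25a41 and Slc25a5-ps had 1 count each in all mice together. Differences in those 5 rows were not detectable at this depth.

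Ischemia was compared with normal conditions to ask which carriers changed in the artery during blood loss. Over both genotypes, 1 of 43 carriers was called, where a call needs an FDR under 0.05 together with a fold over 1.5, and 0.927% of all genes tested were called. It was Slc25a25, a calcium-regulated carrier that exchanges ATP-Mg for phosphate, and it rose. A further 10 carriers had an unadjusted p under 0.05 and were not called, so that 11 of 43 stood at that level beside 18.1% of all genes. The median log2 fold change of the 43 carriers was −0.18, and that of all genes −0.05. It was −0.061 without WT normal mouse 2 and −0.28 without KO ischemia mouse 4.

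Slc25a25 was at 14.1, 21.4 and 9.89 CPM in the WT mice under normal conditions and at 10.4, 9.26, 12.8 and 12.3 CPM in the KO mice. After ischemia it was at 15.3, 53.2 and 21.5 CPM in WT mice and at 32.1, 34.8, 37.6 and 66.6 CPM in KO mice. All 4 KO mice after ischemia lay above every mouse under normal conditions, whereas the WT groups overlapped. The log2 fold change over both genotypes was 1.46 (SE 0.29, edgeR FDR 0.0299), a fold of 2.75. It was 1.93 (SE 0.38, edgeR FDR 0.0577) in KO mice alone and 0.99 (SE 0.43, edgeR FDR 0.51) in WT mice alone, neither of which was called. The difference between these had a log2 value of 0.95 (SE 0.56, edgeR FDR 0.95) and was not called. Over 24 alternatives the fold change over both genotypes stayed at 1.11 to 1.63 on the log2 scale, with FDRs of 0.00019 to 0.194, and 14 of them called it. It was lost without WT normal mouse 3 (edgeR FDR 0.0538), which is also the library of a sequencing lane of its own, without KO normal mouse 1, 2, 3 or 4 (edgeR FDR 0.0531, 0.0734, 0.0619 and 0.0583), and without WT ischemia mouse 2 (edgeR FDR 0.0565). It was also lost without KO ischemia mouse 2, 3 or 4 (edgeR FDR 0.0644, 0.0545 and 0.0564). With the 3 mice of highest cardiac marker sums left out, the log2 fold change was 1.31 (edgeR FDR 0.194). Part of the exons of Slc25a25, 4.82% of their length, overlap Naif1 on the opposite strand, and the use of strand in counting is not given.

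Slc25a25 lies on the minus strand of chromosome 2, from 32414487 to 32451445 (GENCODE M21, GRCm38). RefSeq promoter sequences, 250 bases before a start, were found for 36 of the 48 carriers, with 46 starts in all. They were searched on both strands for TGACGTCA, the full cyclic-AMP response element and for TNAAGGTCA, the site of estrogen-related receptors. The cyclic-AMP element was found at 1 start of Slc25a25 and at 1 start of the pyrimidine nucleotide carrier Slc25a36, while 1.55% of 32851 promoters held it. The other motif was in 0 of the 46 carrier promoters, against 1.14% of all promoters. Slc25a25 is shown because this carrier was the one called after ischemia, and Slc25a34 because that carrier had the smallest p between the genotypes. Of the Slc25a25 windows only the one with the element is printed. The windows at its other starts, chr2:32451471-32451720 and chr2:32431152-32431401, held neither motif. Both printed windows are on the minus strand of GRCm38.p6, at chr2:32424067-32424316 for Slc25a25 and at chr4:141623835-141624084 for Slc25a34. Capitals mark the cyclic-AMP element, which lies 150 to 143 bases before that start of Slc25a25, and the Slc25a34 window has none.
Slc25a25: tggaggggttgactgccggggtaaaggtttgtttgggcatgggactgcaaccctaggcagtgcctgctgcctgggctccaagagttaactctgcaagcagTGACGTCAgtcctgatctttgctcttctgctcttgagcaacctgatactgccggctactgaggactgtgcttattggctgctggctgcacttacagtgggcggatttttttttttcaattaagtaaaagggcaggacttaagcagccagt
Slc25a34: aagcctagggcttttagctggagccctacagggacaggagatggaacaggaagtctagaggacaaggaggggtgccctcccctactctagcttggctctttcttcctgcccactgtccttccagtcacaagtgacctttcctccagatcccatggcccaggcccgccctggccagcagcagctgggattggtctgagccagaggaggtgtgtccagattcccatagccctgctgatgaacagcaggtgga
A match of letters is a description of the window and not a bound site. Slc25a36, with the same element, was at 39.0 to 63.0 CPM over the 14 mice.

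In KO mice alone, 0 of 43 carriers were called by edgeR after ischemia, where 0.294% of all genes were. DESeq2 called 4 carriers (Slc25a18, Slc25a25, Slc25a34 and Slc25a45) and limma voom with quality weights called 7 (also Slc25a27, Slc25a33 and Slc25a37), where these tools called 3.43% and 8.23% of all genes. In edgeR 8 carriers had an unadjusted p under 0.05, of which 5 were higher and 3 lower, where 13.2% of all genes stood. The 2 groups did not overlap for 9 carriers, 4 higher and 5 lower after ischemia, where 11.1% of all genes did not overlap (5.49% higher and 5.60% lower).

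Slc25a34, an orphan relative of the uncoupling proteins, had the second smallest p of these. It was at 9.42, 9.01, 3.43 and 15.8 CPM in KO mice under normal conditions and at 62.9, 64.3, 38.2 and 55.2 CPM after ischemia. The groups lay far apart, and the log2 difference was 2.55 (SE 0.58, edgeR FDR 0.0905). Slc25a45, an orphan carrier of the inner membrane, lay the other way in KO mice, at 3.27, 7.05, 5.74 and 8.31 CPM under normal conditions and at 1.75, 2.18, 2.49 and 0.973 CPM after ischemia. Its log2 difference was −1.72 (SE 0.46, edgeR FDR 0.14), and no mouse of one group reached the other.

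In WT mice Slc25a45 was at 7.79, 2.98 and 1.92 CPM under normal conditions and at 2.01, 1.33 and 1.63 CPM after ischemia, so that these groups overlapped. Over both genotypes its log2 fold change was −1.54 (SE 0.35, edgeR FDR 0.0629), just short of a call. With at least 10 counts asked of every mouse it was called, where 1.28% of all genes were. It was also called by DESeq2 and limma voom, which called 4.92% and 4.15% of all genes.

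Slc25a27, known as uncoupling protein 4 and best known from neurons, was at 12.7, 7.38, 10.6 and 6.50 CPM in KO mice under normal conditions and at 4.49, 1.04, 2.95 and 3.13 CPM after ischemia, without overlap. The log2 difference was −1.68 (SE 0.55, edgeR FDR 0.22). The iron importer Slc25a37 (mitoferrin 1) was at 22.5 ± 2.60 CPM (SD, n = 4) and 13.96 ± 2.96 CPM (SD, n = 4), with a log2 difference of −0.69 (edgeR FDR 0.24). The pyrimidine nucleotide carrier Slc25a33 had 6.37 ± 2.77 CPM (SD, n = 4) and 17.5 ± 3.87 CPM (SD, n = 4), with a log2 difference of 1.46 (edgeR FDR 0.26). Neither pair of groups overlapped. The glutamate carrier Slc25a18 had 0 counts in 3 KO mice under normal conditions and 1 count in the fourth, and was at 0.146 to 0.297 CPM after ischemia, which is not far above what 3 counts in a mouse give (0.0678 to 0.113 CPM).

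**Figure D2:**
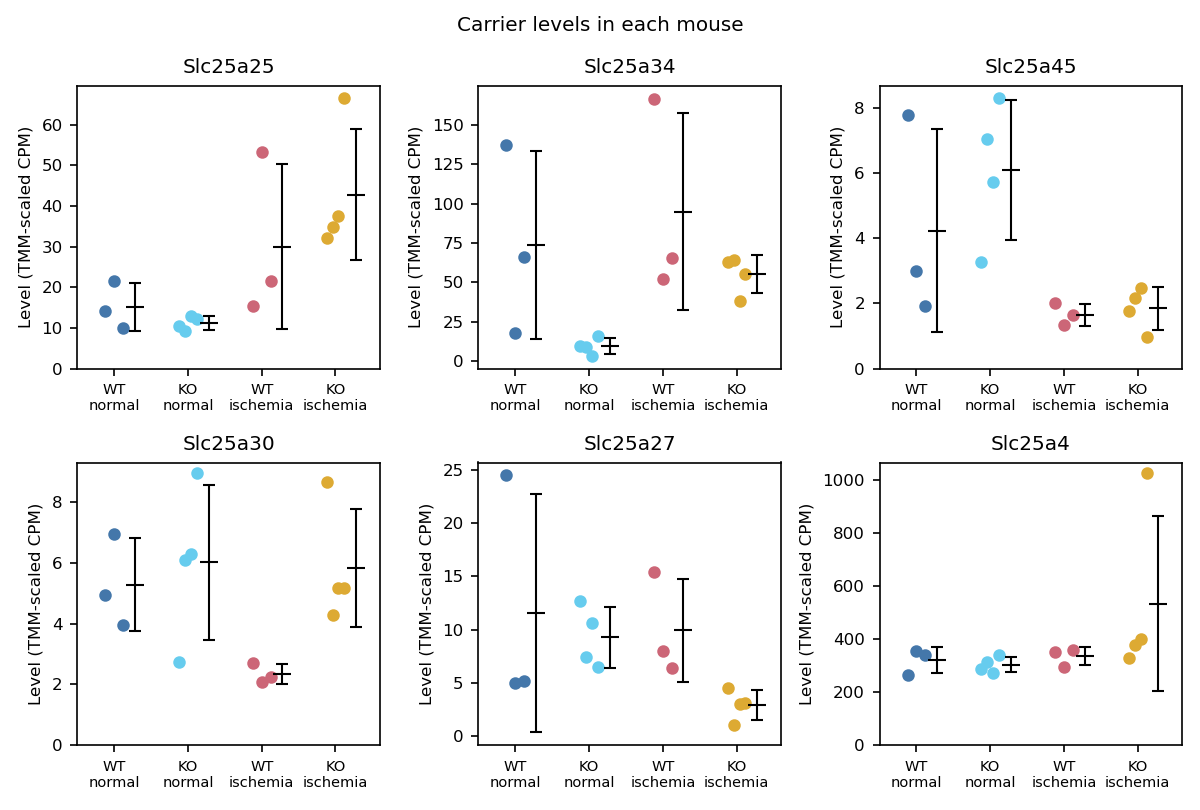
Level of 6 carriers in each mouse (TMM-scaled CPM, linear axis), with the mean and SD of each group beside the points. Slc25a25 sits at 32.1 to 66.6 CPM in KO mice after ischemia, Slc25a34 at 3.43 to 15.8 CPM in KO mice under normal conditions, and 1 KO mouse after ischemia holds 1026 CPM of Slc25a4.

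Slc25a4 rested on 1 mouse. It was at 289, 315, 274 and 339 CPM in KO mice under normal conditions and at 329, 379, 401 and 1026 CPM after ischemia, and the highest value belongs to KO ischemia mouse 4, in which Myh6 was at 3529 CPM. The log2 difference in KO mice was 0.81 (SE 0.31, edgeR FDR 0.28), and between KO and WT mice after ischemia 0.67 (SE 0.34, edgeR FDR 0.72). In the same mouse Slc25a3 was at 446 CPM and Slc25a12 at 66.8 CPM, the highest of the 14 in each case. Without that mouse the log2 differences of Slc25a4 were 0.28 (edgeR FDR 0.62) and 0.14 (edgeR FDR 0.96).

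In WT mice alone, edgeR called 0 of 43 carriers after ischemia, where 0.0113% of all genes were, and DESeq2 and limma voom called 0 too. At an unadjusted p under 0.05 there were 10 carriers, 9 of them lower after ischemia, where 9.57% of all genes stood at that level. The 10 were the orphan carriers Slc25a30 and Slc25a45, the outer membrane protein Slc25a46, the ornithine carrier Slc25a15, the coenzyme A carrier Slc25a42, the acylcarnitine carrier Slc25a20, the glutamate carrier Slc25a22, the branched-chain amino acid carrier Slc25a44, the S-adenosylmethionine carrier Slc25a26, and, higher, Slc25a25. The median log2 difference of the carriers was −0.25, and that of all genes −0.01. The carriers' median was −0.49 without WT normal mouse 1 and −0.10 without WT normal mouse 2. Brown adipocyte markers summed to 194, 7320 and 1832 CPM in the WT mice under normal conditions. After ischemia they summed to 313, 1609 and 794 CPM, inside the normal range. The log2 differences of the 8 markers ran from −2.86 to −0.70, all lower, with a median of −1.77. Of these 8, 0 had an unadjusted p under 0.05. Of 6 white adipocyte markers, 2 were lower at that level, and the median log2 difference of the 6 was −1.46. With the mean log2 CPM of the brown adipocyte markers as a covariate, the carriers' median in WT mice was −0.11. The part of these markers in the carriers' differences was not tested.

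The range within the WT normal group was wide for most of the 10. Slc25a20, which carries acylcarnitines inward for fatty acid oxidation, was at 28.3, 484 and 129 CPM under normal conditions and at 49.9, 74.7 and 51.8 CPM after ischemia. The ischemia values lay inside the range of the normal ones, and the log2 difference was −1.86 (SE 0.80, edgeR FDR 0.51). Slc25a42 was at 9.41, 230 and 35.5 CPM and then at 29.9, 15.5 and 18.1 CPM, with a log2 difference of −2.11 (SE 0.85, edgeR FDR 0.51).

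The groups stayed apart for 2 carriers, both lower, where 11.0% of all genes did not overlap and 4.42% were lower. Slc25a30, an orphan carrier related to the uncoupling proteins, was at 4.93, 6.96 and 3.96 CPM under normal conditions and at 2.71, 2.08 and 2.24 CPM after ischemia, a log2 difference of −1.17 (SE 0.41, edgeR FDR 0.51). Slc25a46, which sits in the outer membrane and is linked to mitochondrial shape, was at 49.2, 67.4 and 65.8 CPM and then at 48.8, 37.2 and 45.2 CPM, a log2 difference of −0.47 (SE 0.22, edgeR FDR 0.52).

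**Figure D3:**
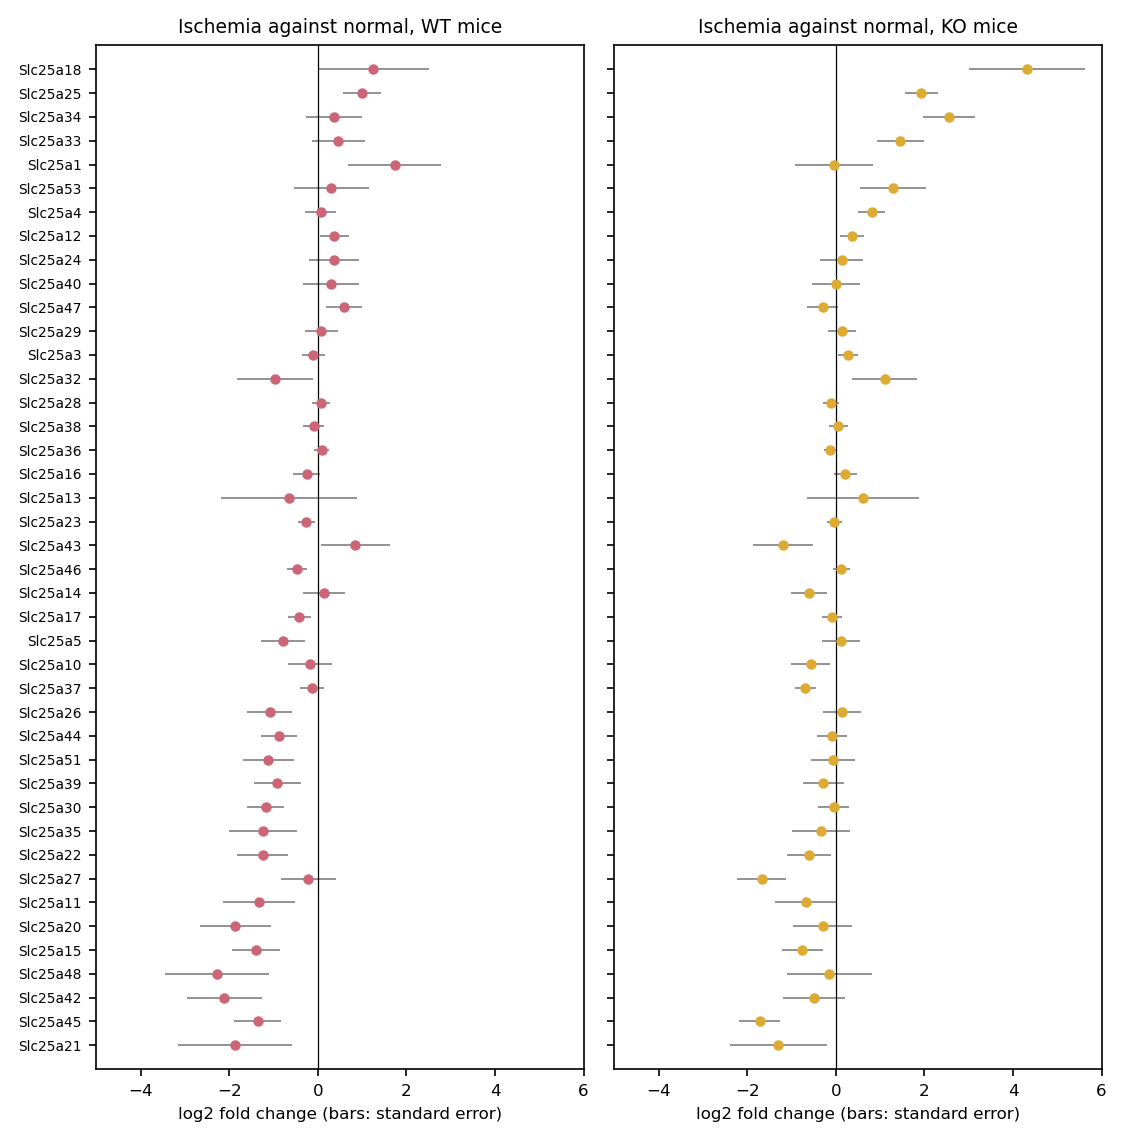
Log2 fold change of each of 42 tested carriers after ischemia, relative to normal conditions, for WT mice (left) and KO mice (right), with bars of 1 standard error. Slc25a25 and Slc25a34 lie to the right in KO mice at 1.93 and 2.55, and Slc25a45 lies to the left in both panels at −1.35 and −1.72.

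The genotypes were compared under normal conditions to ask how the carriers of the heterozygous KO mice differ from those of WT mice without injury. edgeR called 0 of 43 carriers, as it called 0% of all genes, while DESeq2 called 1 (Slc25a34), beside 0.232% of all genes, and limma voom 0. At an unadjusted p under 0.05 there were 2 carriers, both lower in KO mice, where 5.25% of all genes stood. The groups failed to overlap for 1 carrier, lower in KO mice, where 4.50% of all genes did not overlap (2.59% higher and 1.90% lower). The median log2 difference was 0.02 for the carriers and −0.02 for all genes. That of the carriers was −0.20 without WT normal mouse 1 and 0.32 without WT normal mouse 2, so that its sign rested on single mice.

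That carrier was Slc25a34. It was at 137, 18.0 and 65.9 CPM in WT mice and at 9.42, 9.01, 3.43 and 15.8 CPM in KO mice, so that the highest KO mouse lay just under the lowest WT mouse. The log2 difference was −2.97 (SE 0.62, edgeR FDR 0.82). Left out singly, WT normal mouse 2, the lowest of the WT mice, turned it into a call, and no other mouse did. The low group was KO mice under normal conditions, since after ischemia the gene was at 167, 52.4 and 65.6 CPM in WT mice and 38.2 to 64.3 CPM in KO mice. The difference between the genotypes' responses to ischemia was 2.18 on the log2 scale (SE 0.85, unadjusted p = 0.0229 and FDR 0.95 in edgeR) and was not called. The other carrier at that level, Slc25a18, rested on 1 count in the KO group, and Slc25a46 followed with a log2 difference of −0.33 (SE 0.20, edgeR FDR 0.98).

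After ischemia, edgeR called 0 of 43 carriers between KO and WT mice, as it called 0% of all genes, and DESeq2 and limma voom called 0 carriers too. At an unadjusted p under 0.05 there were 3 carriers, 2 higher and 1 lower in KO mice, where 6.48% of all genes stood. The groups did not overlap for 5 carriers, 3 higher and 2 lower, where 10.7% of all genes did not overlap (4.74% higher and 5.97% lower). Of the 43 carriers 28 lay above 0, where 47.1% of all genes did, and their median log2 difference was 0.41, beside −0.03 for all genes. Cardiac muscle markers were higher on average in KO mice, 4 of 5 at an unadjusted p under 0.05 and none called, with a median log2 difference of 6.67. That difference rested on KO ischemia mice 3 and 4, at 796 and 5387 CPM in sum. KO ischemia mice 1 and 2 were at 11.1 and 7.06 CPM, and the WT mice at 55.9, 10.2 and 7.15 CPM. Without the 3 mice of highest cardiac marker sums, the carriers' median was 0.21.

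Slc25a30 had the smallest p. It was at 2.71, 2.08 and 2.24 CPM in WT mice and at 8.68, 4.27, 5.18 and 5.17 CPM in KO mice, with a log2 difference of 1.31 (SE 0.40, edgeR FDR 0.72). All KO mice were above all WT mice. Slc25a27 lay the other way, at 15.4, 7.99 and 6.38 CPM in WT mice and 4.49, 1.04, 2.95 and 3.13 CPM in KO mice, with a log2 difference of −1.77 (SE 0.58, edgeR FDR 0.72). Slc25a48, an inner membrane carrier linked to choline, was at 0.274, 0.816 and 0.470 CPM in WT mice and 1.31, 4.79, 3.65 and 2.07 CPM in KO mice, with a log2 difference of 2.50 (SE 1.14, edgeR FDR 0.72). In these last carriers too the groups did not overlap.

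Several abundant carriers were higher on average in KO mice after ischemia without being called. Slc25a20 had 58.8 ± 13.8 CPM (SD, n = 3) in WT and 181 ± 77.6 CPM (SD, n = 4) in KO mice, a log2 difference of 1.62 (SE 0.76, edgeR FDR 0.72). Slc25a51, which carries NAD+ into mitochondria, had 98.0 ± 31.4 CPM (SD, n = 3) and 208 ± 74.6 CPM (SD, n = 4), a log2 difference of 1.08. For Slc25a5 the log2 difference was 0.75, and for Slc25a39 it was 0.84. In each the WT mice overlapped with 1 KO mouse, KO ischemia mouse 1, which had the lowest brown adipocyte marker sum of its group.

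Brown adipocyte markers were higher on average in the KO mice of these groups, 2 of 8 at an unadjusted p under 0.05 and none called. Their score, the mean log2 CPM of 8 markers (Ucp1, Cidea, Cox8b, Cox7a1, Elovl3, Dio2, Otop1 and Ppargc1b), was 3.91, 6.42 and 5.21 in WT mice after ischemia and 5.81, 8.02, 7.76 and 7.92 in KO mice after ischemia. Under normal conditions it was 2.83, 8.55 and 6.62 in WT mice and 6.28, 7.77, 6.63 and 8.38 in KO mice. With the score as a covariate of the fit, the carriers' median log2 difference between KO and WT mice after ischemia went from 0.41 to −0.02, and that of Slc25a20 from 1.62 to −0.08 (SE 0.30, edgeR FDR 0.99). For Slc25a5 it became −0.22, for Slc25a39 −0.19 and for Slc25a51 0.02. Of the 3 carriers of smallest p, Slc25a48 went from 2.50 to 0.32 (SE 0.88, edgeR FDR 0.98) and Slc25a27 from −1.77 to −0.84 (SE 0.37, edgeR FDR 0.80), whereas Slc25a30 was at 1.26 (SE 0.44, edgeR FDR 0.71). The score itself averaged 5.18 in WT and 7.38 in KO mice after ischemia, so score and genotype went partly together in this fit. What part of these differences belongs to either was not tested. In bulk tissue, fewer cells of a type and less RNA per cell cannot be told apart.

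**Figure D4:**
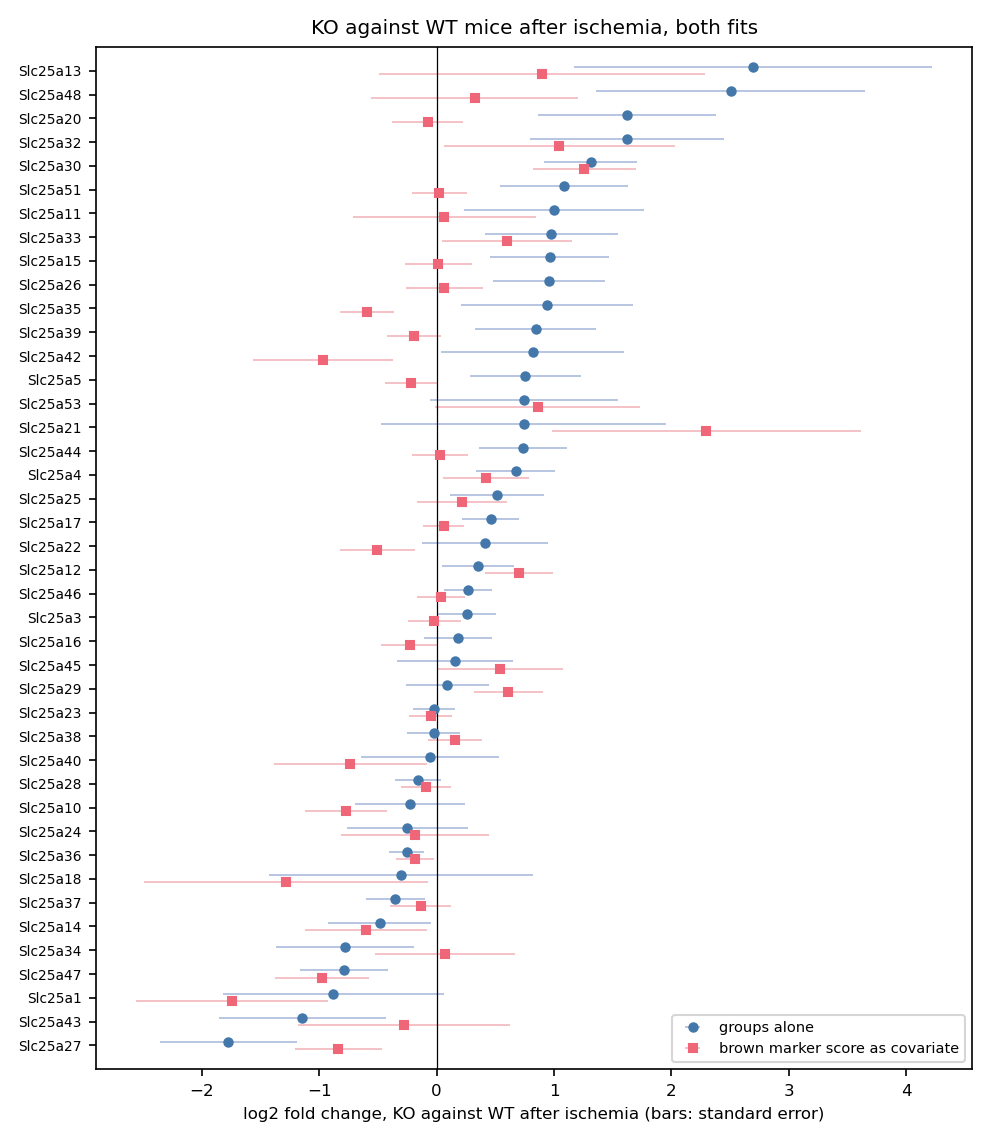
Log2 fold change of each of 42 tested carriers between KO and WT mice after ischemia, from the fit of the groups alone (circles) and with the brown adipocyte marker score as a covariate (squares), with bars of 1 standard error. The median of all 43 tested carriers lies at 0.41 in the first and at −0.02 in the second, while Slc25a30 stays at 1.31 and 1.26. The score itself averaged 5.18 in WT and 7.38 in KO mice after ischemia, and its part in the differences was not tested.

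The response to ischemia was also compared between the genotypes directly. edgeR called 0 carriers and 0% of all genes, DESeq2 and limma voom called 0 carriers, and 1 carrier, Slc25a34, had an unadjusted p under 0.05, where 4.32% of all genes stood. Of the 43 carriers 30 lay above 0, where 48.9% of all genes did, with a median of 0.63 on the log2 scale, beside −0.02 for all genes. That median was 0.14 without WT normal mouse 2, the mouse with the highest brown score, and 0.13 with the score as a covariate. After Slc25a34 the smallest p belonged to Slc25a30 at 1.13 (SE 0.54, edgeR FDR 0.95) and Slc25a46 at 0.59 (SE 0.29, edgeR FDR 0.95). Averaged over both conditions, KO against WT mice gave 0 calls among carriers in edgeR, as among all genes (0%), and 1 in DESeq2 and in limma voom, where these called 0.497% and 0.876% of all genes. It was Slc25a34, at a log2 difference of −1.88 (SE 0.42, edgeR FDR 0.49). There 4 carriers had an unadjusted p under 0.05, where 7.77% of all genes stood.

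The carriers' levels were also set against the brown adipocyte markers, as the slope of a carrier's log2 level on the score within the groups, over all 14 mice. A slope of 1 means that a level doubles when the marker level doubles. At an FDR under 0.05, 17 of 43 carriers were called, 15 with a positive and 2 with a negative slope. This compares with 23.1% of all genes, 13.8% with a positive and 9.28% with a negative slope. At an unadjusted p under 0.05 there were 23 carriers, where 35.7% of all genes stood. Without the 2 mice farthest from the median score, WT normal mouse 1 and WT ischemia mouse 1, 12 carriers were called, where 14.5% of all genes were.

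The smallest FDR belonged to an orphan carrier, Slc25a35, with a slope of 0.73 (SE 0.06, edgeR FDR 3.3e-06). It was at 5.84, 120 and 58.6 CPM in WT and 29.5, 73.5, 38.5 and 112 CPM in KO mice under normal conditions, and at 12.2, 37.2 and 28.9 CPM in WT and 28.1, 71.4, 52.4 and 48.3 CPM in KO mice after ischemia. The lowest and the highest mouse were thus both WT mice under normal conditions. Reads of Slc25a35 may include those of Rangrf, which overlaps 31.3% of its exon length on the opposite strand.

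Carriers of fatty acid oxidation and of cofactors followed. Slc25a20 had a slope of 0.68 (SE 0.07, edgeR FDR 1.7e-05), with a 17.1-fold range over the mice. The slopes of Slc25a51 and Slc25a26 were 0.47 and 0.37. Slc25a42, which takes coenzyme A inward, had 0.63 (SE 0.14, edgeR FDR 0.0049), and the glutathione carrier Slc25a39 had 0.44. Of 8 tested carriers of cofactors, iron and glutathione, 4 were called, all positive, where 13.8% of all genes were called with a positive slope.

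Of 11 tested carriers of nucleotides, phosphate and coenzyme A, 4 were called, all positive, beside the same 13.8% of all genes. The paralogs Slc25a4 and Slc25a5 differed here. Slc25a5 had a slope of 0.41 (SE 0.05, edgeR FDR 8.5e-05) and ranged from 64.0 to 354 CPM, whereas Slc25a4 had 0.10 (SE 0.08, edgeR FDR 0.39) and was not called. The coenzyme A-related carrier Slc25a16 and the peroxisomal carrier Slc25a17 had slopes of 0.18 and 0.17.

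Among the 9 tested carriers of amino acids and carnitine, 4 were called with a positive slope, which besides Slc25a20 were Slc25a15 at 0.41, Slc25a22 at 0.42 and Slc25a44 at 0.30. The basic amino acid carrier Slc25a29 was called with a slope of −0.23 (SE 0.06, edgeR FDR 0.0202). Among the 9 carriers of carboxylic acids and relatives of the uncoupling proteins, Slc25a35 and the dicarboxylate carrier Slc25a10, at 0.35, were called positive, and Slc25a27 negative at −0.43 (SE 0.08, edgeR FDR 0.0018). Slc25a48, at 1.01 (SE 0.24, edgeR FDR 0.0081), was the 1 of 6 orphan and other carriers called. Beside these counts, 13.8% of all genes were called with a positive and 9.28% with a negative slope.

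The carriers whose slope was not called included Slc25a23, at 0.01 (SE 0.04, edgeR FDR 0.84), and Slc25a25, at 0.16 (SE 0.09, edgeR FDR 0.20). With the score as a covariate, 5 carriers were called after ischemia over both genotypes, where 2.90% of all genes were, namely Slc25a25 at 1.47 (edgeR FDR 0.0102), Slc25a15 at −0.82 (edgeR FDR 0.0260), Slc25a45 at −1.55 (edgeR FDR 0.0260), Slc25a27 at −0.94 (edgeR FDR 0.0465) and Slc25a34 at 1.40 (edgeR FDR 0.0497). In KO mice alone 3 were called, Slc25a25, Slc25a27 and Slc25a34, where 1.81% of all genes were. White adipocyte markers moved with the score as well, 5 of 6 called with a positive slope. So did 4 of 6 endothelial markers, where 13.8% of all genes were called positive. Of 8 smooth muscle markers 4 were called with a negative slope, where 9.28% of all genes were. The part of these 3 marker lists in the carriers' slopes was not tested.

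**Figure D5:**
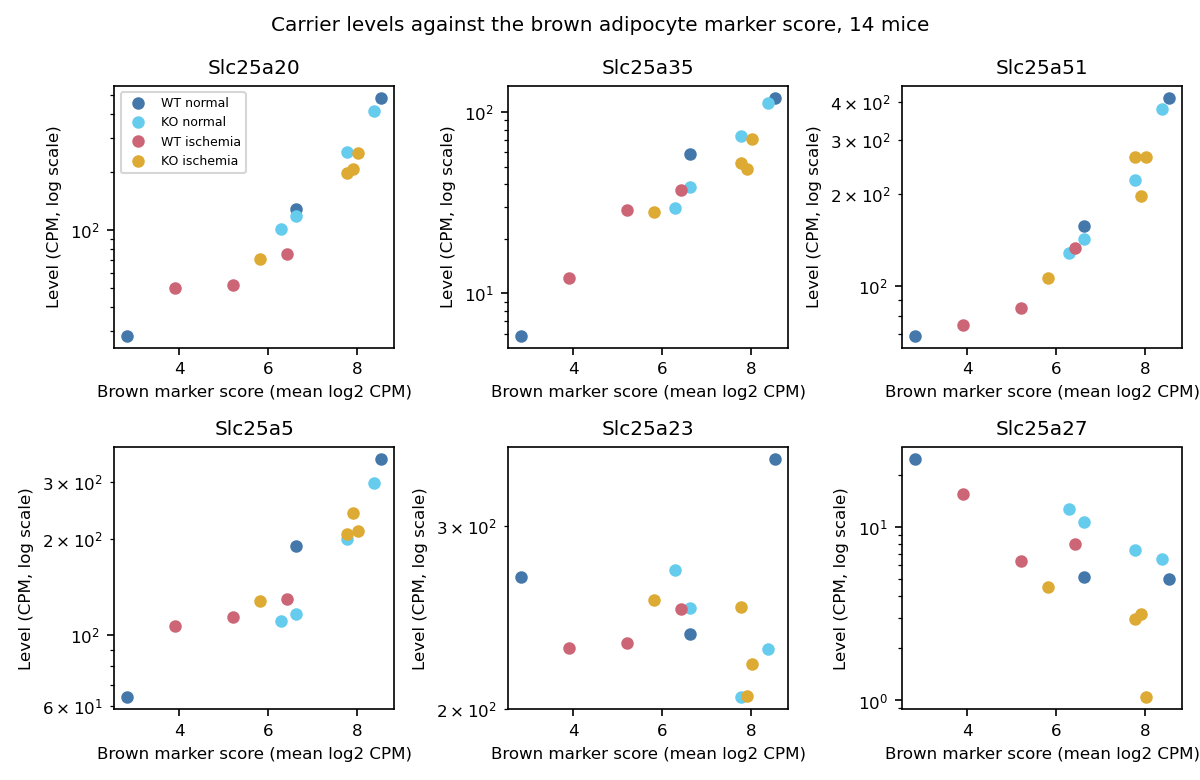
Level of 6 carriers (CPM, log axis) against the brown adipocyte marker score (mean log2 CPM of 8 markers) in the 14 mice, with 1 colour for each group. Slc25a20, Slc25a35, Slc25a51 and Slc25a5 climb with the score, Slc25a23 stays between 205 and 347 CPM, and Slc25a27 declines.

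Members of the family under other symbols were set against the same score. Ucp1, which is part of the score, was at 40.2 to 4072 CPM. Its relative Ucp3 had a slope of 1.06 (SE 0.07, edgeR FDR 9.8e-07), and the outer membrane relatives Mtch2 and Mtch1 had 0.42 and 0.17. Ucp2, common in immune cells, had 0.13 (SE 0.11, edgeR FDR 0.43) and was not called. Among 19 other mitochondrial solute transporters, 13 were called with a positive and 1 with a negative slope, where 13.8% and 9.28% of all genes were. These included the pyruvate carrier subunits Mpc2 at 0.63 and Mpc1 at 0.35, and Sfxn5, of the sideroflexin family, at 0.74 (SE 0.04, edgeR FDR 9.5e-07). Sfxn3 was the negative one, at −0.26. No member of either list was called by edgeR between genotypes or between conditions.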

How the data were processed

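RNA from 14 arteries was sequenced. The authors deposited 1 table of raw read counts per gene symbol, whole numbers without normalization. Per the labels' processing notes, HISAT2 2.0.4 and the mm10 build were used. The counting program, annotation and use of strand are not given in the sources used here, so reads of overlapping genes (15 of 48 carriers share exon bases with another gene) cannot be assigned with certainty. No column of single samples was left unused (0).

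The analysis used edgeR 4.0.16 (R 4.3.3): filterByExpr by group (17693 genes), TMM scaling, 1 quasi-likelihood fit of all mice, Benjamini-Hochberg adjustment over all genes, and a call at FDR under 0.05 with a fold over 1.5. The score slope used the groups plus the score, no fold limit and log2 CPM with a prior count of 2. The contrasts and the slope were tested on simulated counts. Over both genotypes, ischemia called 27 of 75 genes changed by log2 1, 41 of 68 changed by 2 and 42 of 57 changed by 3. The slope test called 87 of 200 genes given a slope. With no gene changed, each contrast called 0 genes. A carrier that was not called may thus still differ. DESeq2 1.42.0, limma 3.58.1 (voom), other scalings and filters, covariates and each mouse left out were alternatives. The labels number the samples of a group without naming animals, so p-values measure the spread between these samples. The biological coefficient of variation was 0.522. Among 18 pairs of mice of a group no duplicate library was found (lowest chi-square per degree of freedom 59.1).

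The members, marker lists and named carriers were chosen with earlier results of these data known. Named with values are carriers called, the 3 of smallest p in each comparison, the 5 of highest level per kb, a set of well-known carriers and, outside this rule, carriers named because their groups did not overlap or because they had an unadjusted p under 0.05, after their values were seen. No protein sequences were used here. Of the tested carriers, 1 is not reported here other than within counts and medians, and is not drawn.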

Additional observations from a re-analysis of the deposited data

Results flagged for a closer look

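In groups of 4 mice, 52 checks on 26 of the 43 tested carriers were made for a single mouse far from the other 3, and 5 were found. Chance flags about 1 in 20 groups, which is a rough guide only, since carriers were partly named after their values were seen. Slc25a4 was at 1026 CPM in KO ischemia mouse 4, against 400.5 CPM in the next mouse, and Slc25a25 was at 66.6 CPM in the same mouse, against 37.6 CPM. Both values come from the mouse with the highest cardiac marker sum, 5387 CPM, and the part of those markers was not tested. Slc25a16 was at 34.5 CPM in KO normal mouse 4, against 19.1 CPM in the next. Slc25a18 was at 0.0307 CPM there, from 1 count, with 0 in the other 3 mice, a pattern that the check always flags. Slc25a17 was at 33.5 CPM in KO ischemia mouse 1, below the other 3 mice, the nearest of which was at 54.9 CPM, and this mouse had the lowest brown adipocyte score of its group, 5.81.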

How the results depend on the processing

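Slc25a25 had a positive fold change after ischemia over both genotypes in each of 24 alternatives and passed in 14, and the calls of Slc25a5, Slc25a20, Slc25a22, Slc25a35 and Slc25a39 with the brown score passed in each of 23. The percentage in brackets is the share of all genes called in the same setting. Under normal conditions, where edgeR called 0 carriers between the genotypes, DESeq2 called 1 (0.232%). After ischemia in KO mice, where edgeR called 0, DESeq2 called 4 (3.43%) and limma voom 7 (8.23%). There 1 was called with no filter on low counts (0.263%), 2 in a fit of only those groups (1.67%) and 3 with the score as a covariate (1.81%). Over both genotypes, where edgeR called 1 (0.927%), DESeq2 called 4 (4.92%) and voom 5 (4.15%). A minimum of 10 counts in every mouse gave 2 (1.28%) and the covariate 5 (2.90%). Leaving out the 3 mice with the highest cardiac marker sums, chosen after seeing the data, gave 0 (0.0767%). Averaged over conditions, DESeq2 and voom each called 1 between genotypes (0.497% and 0.876%), where edgeR called 0. The causes were not tested.

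Leaving out 1 mouse gave 0 to 2 calls after ischemia over both genotypes, where 0.341% to 1.95% of all genes were called. Between genotypes it gave 0 to 1 under normal conditions, where 0% to 0.156% of all genes were called. Averaged over conditions it gave 0 to 1, where 0% to 0.550% of all genes were called. Medians of the interaction were 0.14 to 0.80 on the log2 scale (0.63 with all mice). The score as a covariate moved the carriers' median to 0.13 for the interaction and to −0.020 for KO against WT mice after ischemia, where it turned Slc25a5 to −0.22, Slc25a20 to −0.075, Slc25a39 to −0.19 and Slc25a42 to −0.97. Called over all genes were, across alternatives, 14 to 870 after ischemia over both genotypes (164 as reported), 0 to 1457 in KO mice (52), 0 to 108 in WT mice (2), 0 to 41 between genotypes under normal conditions (0), 0 to 37 after ischemia (0), 0 to 155 averaged over conditions (0), 0 to 11 for the interaction (0) and 535 to 5397 for the score (4086).

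Same-numbered mice of different groups are different animals and did not all deviate together. Correlations ran from −0.15 to 0.32 over 19 such pairs, with a median of 0.12. Over 54 pairs with different numbers the median was lower, at −0.045. Of 12 mice, 7 correlated best with their own number. With the replicate number as a block, 6 carriers were called with the score instead of 17, as 3.02% of all genes were instead of 23.1%, and Slc25a25 after ischemia over both genotypes had a log2 fold change of 1.38. Carriers under a few counts in a mouse cannot be compared at this depth.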
